A study of Mus musculus with 4 samples.

Results

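The sites described here are peaks of topoisomerase IIα (TopoIIa) activity in the last 10 Mb of mouse autosomes, on the side of the telomere. Members were all peaks that started less than 10 Mb before the largest peak end in either list on their chromosome, on chromosomes 1 to 19 without 8 and 11. The rule used position only. It took 1473 of 16591 wild-type peaks (8.88%) and 282 of 4622 Brg1-knockout peaks (6.10%), or 1755 of 21213 in all. They were compared with the middle of the same 17 chromosomes, where a peak starts at least 20 Mb from the first base and more than 20 Mb before that end. The middle held 9163 wild-type and 2584 knockout peaks.

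The study pulled down covalent TopoIIa-DNA complexes from embryonic stem cells and sequenced the DNA. All cells came from 1 line, labelled Brg1f/f-actinCreER, which also carried V5-tagged human TopoIIa and a short hairpin against the mouse enzyme. The wild-type group had ethanol and the Brg1-/- group tamoxifen for 24 h, then 48 h in medium, and both had 100 µM etoposide for the last 10 min. Each genotype gave 1 V5 library with a peak list in mm9 coordinates and 1 input, which was not analysed here. The controls thus carry the same floxed alleles, Cre, transgene, hairpin and drug as the knockout. Cells had been kept on feeder cells before they were plated on gelatin, and nothing in the lists measures Brg1 or the feeders.

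TopoIIa cuts 1 DNA duplex, passes another through the gap and reseals it, which unlinks the sister chromatids that replication leaves intertwined. Etoposide stops the resealing, so that the enzyme stays bound to the DNA it was cutting. Brg1 drives BAF complexes, which move nucleosomes with energy from ATP. Mouse autosomes have their centromere at 1 end, and coordinates start there, so the highest coordinates lie towards the telomere of the long arm.

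With 1 library per genotype, no p-value was computed. Intervals are exact 95% intervals for counting error alone, as if each peak were independent of its neighbours. The spread between chromosomes and between 10 Mb windows is given beside them, because it was wider than the counting error. Chromosomes of 1 library are not replicates. Where intervals are said to overlap, this is a description and does not test the difference between the values. The score is the authors' own value per peak and is used only within its list, and the sequencing depth is unknown. The lists may have been called with different settings, since wild-type peaks were far wider throughout, and counts and shares set between them depend on this. Of the 17 chromosome ends, 15 are set by a wild-type and 2 by a knockout peak, so each end holds 1 peak by construction.

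Wild-type TopoIIa sites were denser in the distal regions than in the middle. The distal regions held 8.66 wild-type peaks per Mb over 170 Mb, and the middle held 5.96 per Mb, a ratio of 1.45 (1.37 to 1.54). Knockout peaks had nearly the same density in both, 1.66 and 1.68 per Mb, a ratio of 0.987 (0.869 to 1.12). The lists as called had 5.22 wild-type peaks for each knockout peak in the distal regions (4.60 to 5.95), against 3.55 in the middle (3.39 to 3.71). With chromosomes 8 and 11 added, the ratios rose to 1.77 (1.68 to 1.85) for wild-type and 1.16 (1.04 to 1.29) for knockout peaks, so that the knockout value depends on which chromosomes are counted.

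The wild-type excess was uneven across chromosomes. Distal density ran from 3.9 per Mb on chromosomes 3 and 17 to 23.9 on chromosome 4, with a median of 6.1 and a mean of 8.66 ± 5.66 (SD, n = 17 chromosomes). The middle ran from 4.38 to 10.6 per Mb, with a mean of 5.98 ± 1.54. The distal ends thus differed more from each other than the middles did, where a longer stretch is averaged. The distal value was higher than the middle value on 12 of 17 chromosomes and lower on 5.

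The 3 highest ratios were on chromosomes 4, 12 and 7. Chromosome 4 had 239 distal peaks, 23.9 per Mb against 6.61 in its middle, a ratio of 3.62 (3.11 to 4.19). On chromosome 12 there were 186 distal peaks, 18.6 against 5.71 per Mb, a ratio of 3.26 (2.73 to 3.87). The 140 distal peaks of chromosome 7 gave 14 against 6.69 per Mb and a ratio of 2.09 (1.74 to 2.51). These chromosomes held 38.4% of all distal wild-type peaks but 21.6% of those in the middle.

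The 3 lowest ratios were on chromosomes 17, 6 and 3. Chromosome 17 had 3.9 peaks per Mb in its distal region against 10.6 in its middle, a ratio of 0.367 (0.258 to 0.507), the only one whose interval lay wholly below 1. The ratios on chromosomes 6 and 3 were 0.772 (0.556 to 1.05) and 0.811 (0.571 to 1.12). On 7 chromosomes (2, 4, 5, 7, 9, 12 and 15) the interval lay wholly above 1. Without chromosomes 4, 7 and 12, chosen after their values were seen, the other 14 had 6.49 distal peaks per Mb against 5.85, a ratio of 1.11 (1.03 to 1.19).

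Windows of equal length give the scale of this variation. The middle could be cut into 146 whole windows of 10 Mb, with 2 to 15 on a chromosome. Their wild-type density was 5.95 ± 3.6 per Mb (SD), from 0.9 to 21.4. The distal region exceeded every middle window of its own chromosome on chromosomes 4, 9, 12 and 19, where chromosome 19 had 2 windows to compare. It lay below every one on chromosome 17, and above the median window on 14 of 17 chromosomes.

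**Figure D1:**
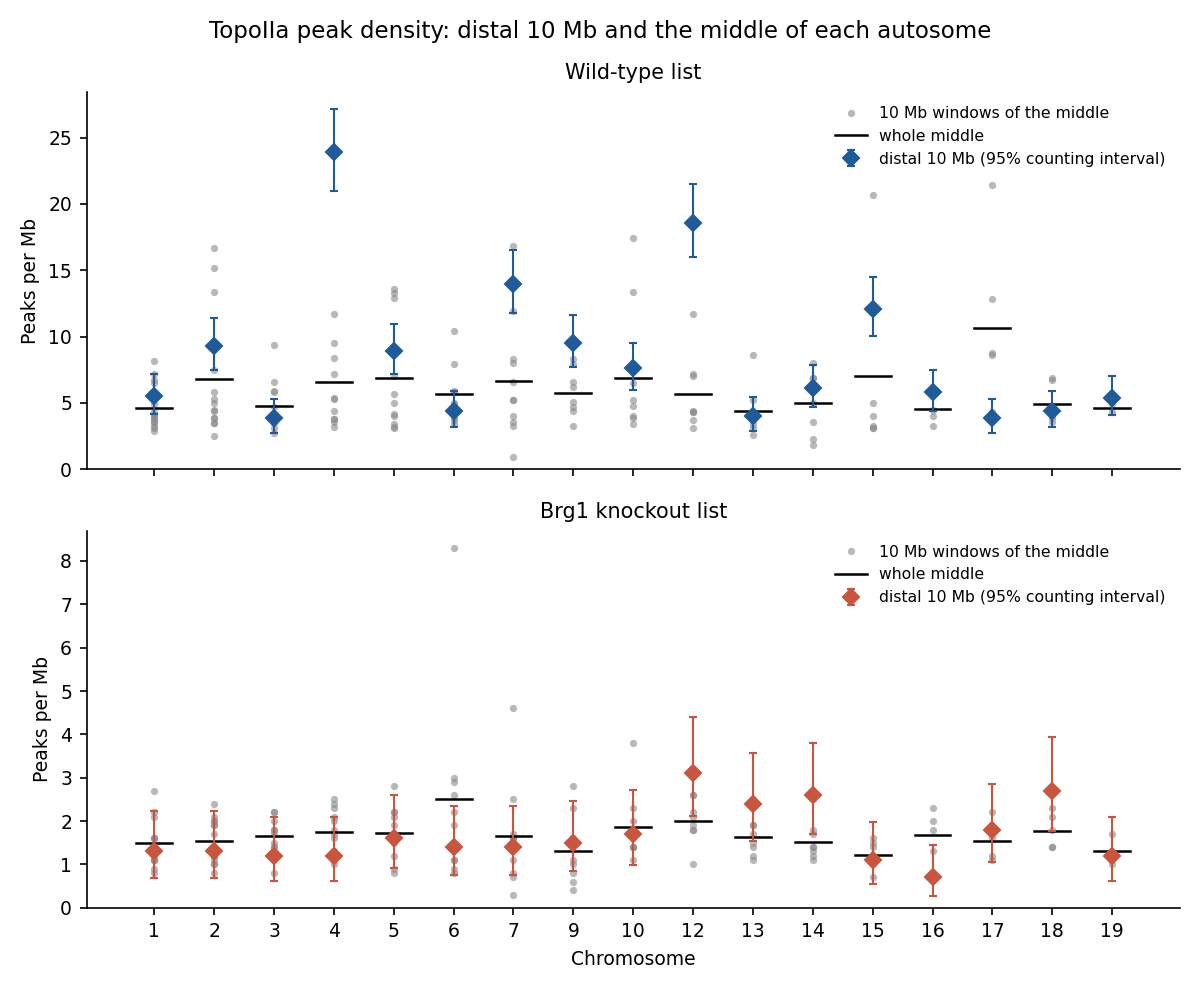
Peaks per Mb (vertical axis) for each of the 17 autosomes (horizontal axis), in the wild-type list above and the knockout list below; diamonds are the distal 10 Mb with 95% counting intervals, black bars the whole middle and grey points its 10 Mb windows. The wild-type distal values of chromosomes 4 (23.9) and 12 (18.6) lie above all of their grey points, and that of chromosome 17 (3.9) lies below all of its own.

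The knockout list showed another order of chromosomes. Distal density ran from 0.7 per Mb on chromosome 16 to 3.1 on chromosome 12, with a median of 1.4 and a mean of 1.66 ± 0.657 (SD, n = 17 chromosomes). It was higher than in the middle on 6 of 17 chromosomes. The 3 highest ratios were 1.70 on chromosome 14 (26 peaks, 1.07 to 2.61), 1.54 on chromosome 12 (31 peaks, 1.02 to 2.28) and 1.52 on chromosome 18 (27 peaks, 0.95 to 2.36). The 3 lowest were 0.420 on chromosome 16 (7 peaks, 0.164 to 0.898), 0.559 on chromosome 6 (14 peaks, 0.302 to 0.954) and 0.690 on chromosome 4 (12 peaks, 0.351 to 1.23). Chromosome 4, the densest end in wild-type cells, thus had one of the sparser ends in the knockout list. Each of these values rests on few peaks. Across the 17 chromosomes the distal densities of both lists had a Pearson r of 0.022 and a Spearman rho of -0.10, given as a description, and r was -0.31 without chromosomes 4 and 12.

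The higher wild-type density did not stop at 10 Mb. Peaks starting 0 to 5 Mb from the end stood at 9.32 per Mb, and those at 5 to 10 Mb at 8.01. At 10 to 15 Mb the density was 8.07 and at 15 to 20 Mb 8.80, so the distal regions and the next 10 Mb inwards differed by a ratio of 1.03 (0.955 to 1.11). The distal region had more peaks than that neighbour on 9 chromosomes and fewer on 8. At 20 to 30 Mb, which belongs to the middle, the density was still 7.51 per Mb. These values include chromosomes 4, 7 and 12. On the other 14 chromosomes the distal 1 Mb bins ran from 4.57 to 7.71 per Mb. Bins at 10 to 20 Mb then ran from 4.14 to 11.9 per Mb, and those at 20 to 30 Mb from 4.57 to 11.5. The densest bins of these 14 thus lay inwards of the distal regions. On either side of the limit there was no step: the bin from 9 to 10 Mb held 111 wild-type peaks and the bin from 10 to 11 Mb held 105.

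The last megabase held 40 knockout peaks, 2.35 per Mb and 1.4 times the middle (0.997 to 1.91), an interval that includes 1. Another bin, at 27 to 28 Mb, stood higher, with 48 knockout peaks or 2.82 per Mb (2.08 to 3.74). The wild-type list had 161 peaks in the last megabase, 9.47 per Mb and 1.59 times the middle (1.35 to 1.86). The peaks that fix the chromosome ends are among those of the last megabase.

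**Figure D2:**
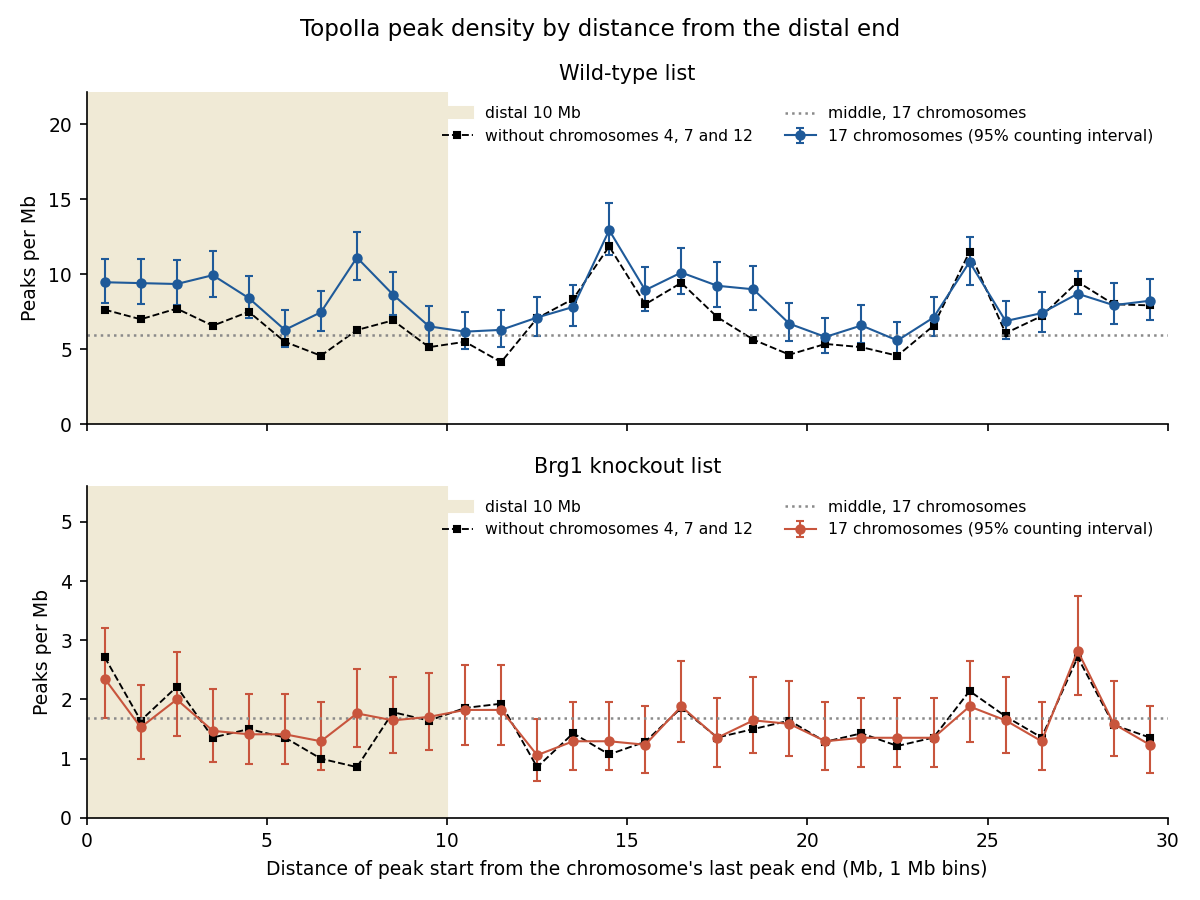
Peaks per Mb (vertical axis) in 1 Mb bins of distance from the last peak end (horizontal axis, Mb), summed over the 17 chromosomes with 95% counting intervals, and without chromosomes 4, 7 and 12 (dashed); the dotted line is the middle and the shaded band the distal 10 Mb. Wild-type bins in the band range from 6.29 to 11.1 per Mb and the bin at 14 to 15 Mb reaches 12.9, so the band is not set apart from its neighbour.

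Distal wild-type peaks were about as strong as those in the middle by their median, and a larger share of them reached a score of at least 500. The median score was 104.17 in the distal regions (interquartile range 68.5 to 187) and 105.57 in the middle (70.1 to 179). A score of at least 100 was reached by 767 distal peaks, 52.1% (49.5 to 54.6%), beside 53.1% of the whole list and 52.9% of the middle. By chromosome the distal median score was higher than the middle one on 7 and lower on 10. It ran from 75.8 on chromosome 7, against 102 in that chromosome's middle, to 160 on chromosome 13, against 113.

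At a score of at least 500 the distal regions had 79 wild-type peaks, 5.36% of their total (4.27 to 6.64%). The middle had 333, or 3.63% (3.26 to 4.04%). Per Mb this was a ratio of 2.14 (1.66 to 2.75). Each of the 17 distal regions had at least 1 such peak, and chromosome 12 had 25. Without chromosomes 4, 7 and 12 the ratio was 1.59 (1.12 to 2.20), above the 1.11 of all peaks on those chromosomes, with intervals that overlap.

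Distal wild-type peaks were slightly wider. Their median width was 2199 bp (interquartile range 1839 to 2643 bp) and that of the middle 2130 bp (1783 to 2521 bp). The difference of 69 bp fell to 8 bp without chromosomes 4, 7 and 12. Peaks wider than 5 kb made up 3.12% of the distal peaks (46 peaks, 2.30 to 4.14%) and 1.46% of the middle (134 peaks, 1.23 to 1.73%). Chromosome 12 had 23 of the 46 and chromosome 4 had 7. On the 14 other chromosomes 1.65% of distal peaks were this wide (15 peaks, 0.927 to 2.71%), against 1.56% in the middle.

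**Figure D3:**
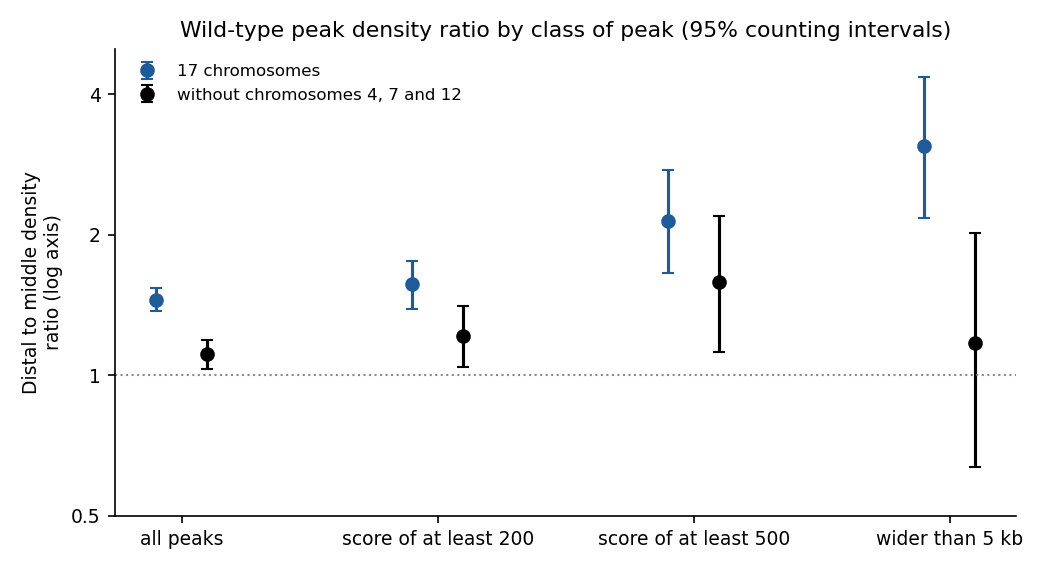
Ratio of distal to middle density of wild-type peaks (vertical log axis) for 4 classes of peak, with 95% counting intervals, on all 17 chromosomes and without chromosomes 4, 7 and 12. The ratio for peaks wider than 5 kb is 3.10 with these chromosomes and 1.17 without them, while that for scores of at least 500 goes from 2.14 to 1.59.

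Knockout peaks differed little in score and width between the regions. Their median score was 59.1 in the distal regions (54.0 to 72.2) and 58.3 in the middle (54.3 to 66.2). A score of at least 100 was reached by 30 distal knockout peaks, 10.6% (7.29 to 14.8%), beside 7.64% of the whole list and 7.51% of the middle. The median widths were 143 and 141 bp. The highest distal score was 256.17, whereas the middle held 11 knockout peaks with scores of at least 500. At the middle's share of 0.426% few would be counted among 282 peaks, and 0 of 282 allows up to 1.30%.

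A site was called shared if 1 bp or more of it lay under a peak from the other genotype. Such an overlap is unequal by construction, since wild-type peaks had a median width near 2 kb and knockout peaks near 140 bp. Among the distal wild-type peaks 66 were shared, 4.48% (3.48 to 5.67%), beside 4.93% of the whole list and 5.02% of the middle (4.58 to 5.49%). The shared share was thus within counting error of the background. It was higher than in the middle on 8 chromosomes and lower on 9, and ran from 2.48% on chromosome 15 to 15% on chromosome 13 (6 of 40 peaks).

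Among the distal knockout peaks 85 were shared, 30.1% (24.8 to 35.9%), beside 21.2% of the whole list and 19.4% of the middle (17.9 to 21.0%). The share was higher than in the middle on 13 of 17 chromosomes. It ran from 16.7% on chromosomes 17 and 19 to 61.3% on chromosome 12 (19 of 31 peaks), with a median of 25%. Wild-type peaks also covered more of the distal sequence, 2.13% against 1.36% in the middle, which is 1.57 times as much, and the knockout share was 1.55 times as high. The part of that coverage in the higher share was not tested.

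Part of the distal knockout share came from peaks that lay side by side. On chromosome 12, 14 of them between 114014500 and 114022908 fell inside 1 wild-type peak, and on chromosome 6, 5 fell inside 1 from 146660045 to 146665727. Without such groups of at least 5 knockout peaks at gaps of at most 10 kb, 66 of 263 distal knockout peaks were shared, 25.1% (20 to 30.8%), against 19.5% in the middle (18.0 to 21.1%). Without chromosome 12 the shares were 26.3% (21.0 to 32.2%) and 19.4% (17.9 to 21.0%). The distal share was higher in each of these counts, but in both the intervals overlapped, without chromosome 12 only at their edges. The difference itself was not tested.

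The knockout peaks were also counted per Mb. Those on a wild-type peak stood at 0.5 per Mb in the distal regions and 0.327 in the middle, a ratio of 1.53 (1.2 to 1.93). Peaks away from wild-type peaks stood at 1.16 and 1.35 per Mb, a ratio of 0.855 (0.735 to 0.990). Both intervals included 1 without the groups of at least 5 knockout peaks, at 1.23 (0.938 to 1.60) and 0.892 (0.767 to 1.03). They also did so without chromosome 12, at 1.28 (0.972 to 1.66) and 0.863 (0.738 to 1.003). The unshared distal knockout peaks lay a median of 58.6 kb from the nearest wild-type peak, against 73.6 kb in the middle. Wild-type peaks were themselves denser in the distal regions, at 8.66 against 5.96 per Mb. The part of that density in the shorter distance was not tested.

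Stronger knockout peaks were shared more often. Of the 30 distal knockout peaks with scores of at least 100, 24 were shared (80%, 61.4 to 92.3%), against 104 of 194 in the middle (53.6%, 46.3 to 60.8%). These 30 peaks were on 12 chromosomes, and 4 of them belonged to the group on chromosome 12. With neighbouring knockout peaks merged at gaps of 10 kb, 22 of 27 such distal sites were shared (81.5%, 61.9 to 93.7%), against 55.8% in the middle (48.1 to 63.4%). Below a score of 100 the shares were 24.2% (19.1 to 30%) and 16.7% (15.2 to 18.2%). These weak distal peaks include all 5 of the group on chromosome 6 and all but 4 of the 14 on chromosome 12. They were not merged or recomputed without these groups. The intervals of the merged sites with scores of at least 100 overlapped. In 5 bins of knockout score the intervals of the regions overlapped in all but the top bin. That bin starts at a score of 70.14 and includes most of the 14 side-by-side peaks of chromosome 12 (median score 87.94). It was not recomputed without them. In 5 bins of wild-type score the intervals of the regions overlapped in every bin, from 0.990% and 1.31% in the lowest to 9.43% and 10.1% in the highest.

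**Figure D4:**
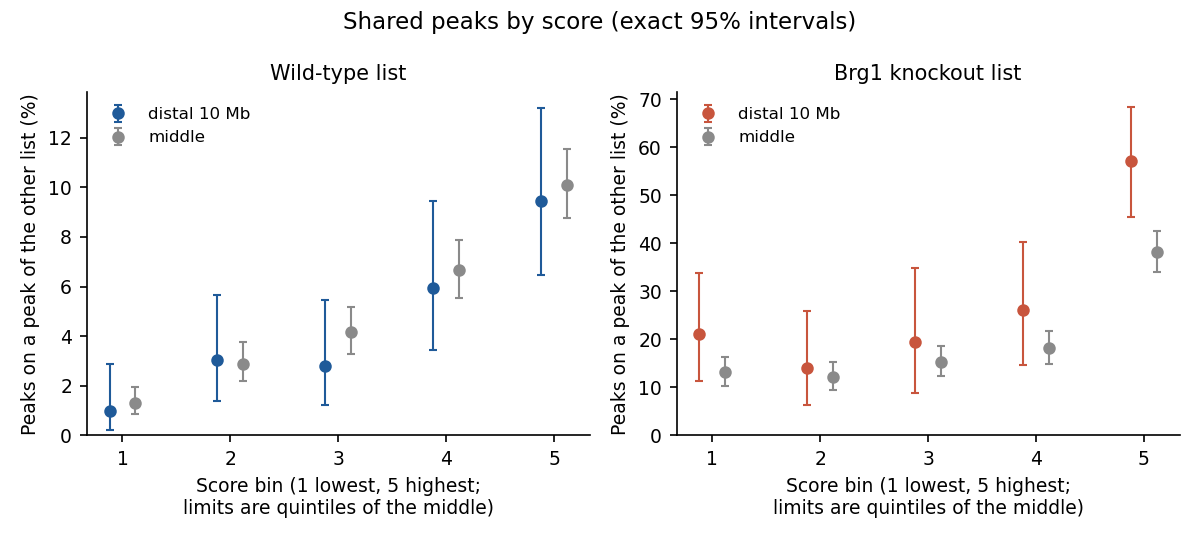
Share of peaks that overlap a peak of the other list (vertical axis, %) in 5 bins of score (horizontal axis), for distal and middle peaks, with exact 95% intervals; wild-type list left, knockout list right. The wild-type shares of both regions are lowest in the first bin and highest in the last, and in the top bin of the knockout list the distal share is 57.1% and the middle share 38.2%. That knockout bin includes most of the 14 side-by-side peaks of chromosome 12.

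Over all 17 chromosomes, distal wild-type sites stood closer together, but this rested on chromosomes 4, 7 and 12. The median gap to the nearest wild-type peak was 22.0 kb, against 39.5 kb in the middle. Groups of at least 5 peaks at gaps of at most 50 kb held 550 distal peaks, 37.3% (34.9 to 39.9%), beside 29.7% of the whole list and 24.8% of the middle (23.9 to 25.7%). Chromosomes 4, 7 and 12 had 371 of the 550, and 7 chromosomes had no distal peak in such a group. Without chromosomes 4, 7 and 12 the grouped share was lower in the distal regions, 179 of 908 (19.7%, 17.2 to 22.5%), than in the middle (24.5%, 23.5 to 25.5%). The median gaps were then 41.2 and 41.1 kb. Outside such groups, on all 17 chromosomes, the distal regions had 5.43 peaks per Mb and the middle 4.48. Grouped distal peaks were rarely shared with the knockout list, 8 of 550 (1.45%, 0.630 to 2.85%), against 58 of 923 other distal peaks (6.28%, 4.81 to 8.05%). The same split held in the middle, with 0.616% (0.337 to 1.03%) and 6.47% (5.90 to 7.08%).

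The 5 distal groups with most wild-type peaks at gaps of at most 10 kb were all on chromosomes 4, 7 and 12. The biggest was chr12:114131194-114216547, where 11 peaks spanned 85.4 kb and the best score was 565. Those of 9 peaks were chr4:148302261-148337198, chr7:148615957-148672164 and chr4:151712294-151767566, and chr12:112905337-112952763 had 8. Top scores in the other 4 ranged from 138 to 557. No knockout peak was called inside any of these 5 groups, where 0 of 46 wild-type peaks were shared, which allows a share of up to 7.71%. That range includes both the 4.93% of the whole list and the 1.45% of grouped distal peaks.

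Peak density varied along the distal end of chromosome 12. Between 6.5 and 10 Mb from its end it had 155 wild-type peaks, 44.3 per Mb, and from 4 to 6.5 Mb it had 5, or 2.0 per Mb. In the last 4 Mb there were 26, or 6.5 per Mb. Knockout peaks stood at 6.0, 2.0 and 1.25 per Mb in the same stretches. Within the dense stretch, chr12:113669590-114603499 held 73 wild-type peaks at gaps of at most 50 kb, which covered 31.3% of its 934 kb. Their median width was 2871 bp and 12 of them were wider than 5 kb. Of these 73 peaks 2 were shared, and 15 of the 17 knockout peaks called in the group lay on them.

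**Figure D5:**
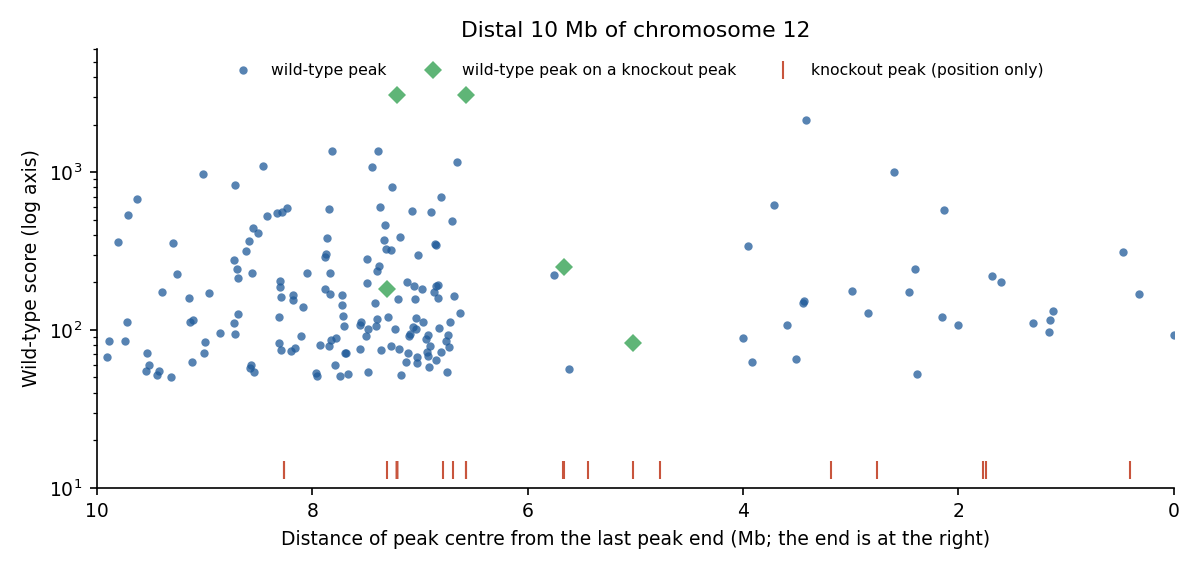
Peaks in the distal 10 Mb of chromosome 12 by distance from the last peak end (horizontal axis, Mb) and, for wild-type peaks, score (vertical log axis); diamonds are wild-type peaks that overlap a knockout peak, and ticks mark knockout peaks by position alone. The 155 wild-type peaks left of 6.5 Mb contrast with 5 between 6.5 and 4 Mb.

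The highest-scoring distal wild-type sites were on 7 chromosomes, with 3 of the 10 on chromosome 12. The score 3100 was shared by 6 peaks, whose order carries no information. The widest of these was chr12:114012652-114024457 (11806 bp), which held the 14 knockout peaks described above, 120 to 415 bp wide with scores of 53.98 to 175.2. The other on that chromosome, chr12:114661341-114664371, held 2 knockout peaks. The remaining 8 of the top 10 had no knockout peak, beside 4.93% of the whole list and 9.43% of distal peaks in the top score bin that had one. Among them were chr9:122449378-122456133 and chr13:114592344-114598057, both at 3100, whose nearest knockout peaks were 133 and 87.4 kb away. Also at 3100 were chr18:84999036-85003588 and chr2:173576739-173581246, at 225 and 284 kb. Next came chr9:117995813-118002528 (score 2695.86), 1769 kb from any knockout peak.

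The top 5 distal knockout peaks by score all lay on a wild-type peak, beside 80% (24 of 30) of distal knockout peaks with scores of at least 100. The share was 21.2% in the whole knockout list and 57.1% in the top score bin of distal knockout peaks, which starts at 70.14. These top 5 were chr5:147072524-147072962 (439 bp, score 256.17), chr5:148422989-148423241 (score 254.3), chr16:93789432-93789630 (score 246.44), chr9:115259875-115260069 (score 236.99) and chr13:116983018-116983223 (score 227.8). The top score bin includes most of the 14 side-by-side knockout peaks of chromosome 12. Strong distal knockout peaks away from wild-type sites were few. The top 3 with no wild-type peak within 1 kb were chr1:196019775-196020145 (score 169.4), chr19:60314303-60314607 (score 162.41) and chr12:118477907-118478206 (score 158.09). Their nearest wild-type peaks lay 425, 108 and 84.1 kb away.

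The limit of the rule fell inside a populated stretch. The outermost member of the wild-type list was chr4:145616168-145619094 (score 234.94, 9.995 Mb from the end), and the first peak outside was chr4:145592724-145595328 (score 75.07). In the knockout list these were chr14:115070155-115070280 (score 56.66) and chr13:110204789-110204902 (score 58.45). No gene is named for any site, since no annotation or sequence of the mm9 build was used here.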

How the data were processed

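The authors deposited 1 BED list of peaks per V5 library, with a score per peak. Per the submitters' processing notes, mm9 was the build, and Bowtie 0.12.8 and MACS 1.4.2 are listed with no role. The lists have no header. The deposited scores start at 50, which fits −10 times the log10 of a p-value, but no source states the scale. The peak caller's control, filters and handling of repeated sequence were not known for this work, and they act on peak number, score, width and overlap. Start and end positions in the deposited lists are in bp and are printed 1-based. Distal density is peaks over 10 Mb per chromosome, and middle density is peaks over the span left after 20 Mb at each side. Shares carry Clopper-Pearson intervals, and ratios of density carry exact Poisson intervals conditional on the total. Sites were named by score, and groups by number of peaks,: the 10 highest wild-type and 5 highest knockout scores, the top wild-type (5) and knockout (3) peaks with none of the other list within 1 kb, the 5 groups with most wild-type peaks at gaps of 10 kb, and the 3 chromosomes at either end of the density ratios. The chromosomes, regions and measures were chosen with earlier results of these data known, and the 10 Mb windows, the stretches of chromosome 12, the set without chromosomes 4, 7 and 12, the score limits of 200 and 500 and the values without knockout groups or chromosome 12 were chosen after seeing values. The overlap and density code was tested on simulated data. Intervals came from scipy 1.17.1 and plots from matplotlib 3.10.9, under Python 3.11.15 with pandas 2.3.3 and numpy 2.4.6. The closing section gives alternative windows, chromosomes, score and width limits, overlaps, merging and left-out chromosomes. The inputs were not analysed here.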

Additional observations from a re-analysis of the deposited data

Results flagged for a closer look

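In 3 measures the values of the distal regions lay on opposite sides of the middle in the 2 genotypes, but most of them differed from the middle by no more than counting error. With 1 library of each genotype the difference between genotypes was not tested. The density ratio of distal to middle was 1.45 in the wild-type list and 0.987 in the knockout list, where the interval (0.869 to 1.12) includes 1 and the ratio was above 1 with a 5 Mb window (1.04) and on all 19 autosomes (1.16). The median score differed from the middle by -1.4 in the wild-type list and 0.89 in the knockout list, with overlapping counting intervals of the medians in each. The shared share was -0.540 percentage points from the middle for wild-type peaks, with overlapping intervals, and 10.7 percentage points for knockout peaks.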

How the results depend on the processing

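Alternatives gave 85 values, of which 63 lay inside the interval of the value in the text and 22 outside it. The wild-type density ratio (1.45) became 1.56 with a 5 Mb window, 1.77 on all 19 autosomes, 1.35 with peaks merged at gaps of 10 kb and 1.22 as the median of the chromosomes' ratios. It ran from 1.31 without chromosome 4 to 1.55 without chromosome 17, and was 1.11 without chromosomes 4, 7 and 12. The knockout ratio (0.987) became 1.16 on all 19 autosomes and 1.4 (0.918 to 2.06) with both lists limited to scores of 100 or more. The shared share of wild-type peaks (4.48%) became 3.47% on all 19 autosomes, 2.48% at that limit, 6.05% with merged peaks and 0% where 50% of both peaks had to overlap. The knockout share (30.1%) became 40.4% on all 19 autosomes, 73.3% at that limit, 23.4% with peaks up to 5 kb and 0% with that overlap. The 5 kb limit removed wild-type peaks of 11806 and 5683 bp on chromosomes 12 and 6, which held 14 and 5 distal knockout peaks. A 50% overlap could hardly occur, since distal knockout peaks were at most 439 bp wide and the lower wild-type quartile was 1839 bp. Middle shares under these settings are not given, so the values do not show whether the difference from the middle changed. With scores of at least 100 in both lists the distal minus middle median was 188 bp in wild-type width (128 to 233). It was 7.97 in wild-type score (-0.55 to 19.5), 24.4 in knockout score (-15.4 to 45.2) and 10 bp in knockout width (-16.5 to 103.5), intervals that include 0. These intervals of medians cover the counting error of the distal median alone, with the middle median held fixed. The wild-type width difference was 8 bp without chromosomes 4, 7 and 12. The sets without chromosomes 4, 7 and 12 and the merged shares were chosen after seeing the data. The cause of these shifts was not tested, and neither was the part of the fewer peaks left under some settings. No paired analysis was possible because the study has only 1 V5 library of either genotype. Depth is unknown, so an absent knockout peak is one that was not called.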
